A study of Mus musculus with 12 samples.

Results

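The lysosome and autophagy genes described here were 52 genes taken from the deposited table by gene symbol, out of 36047 rows, of which 26372 carry a symbol. They comprise 18 hydrolases and lumenal proteins, 6 membrane proteins, 9 subunits of the proton pump, the 3 transcription factors of the TFEB family and 16 autophagy genes. The list was given by name, with earlier results of these data known, and no measured value entered the rule. Each of the 52 symbols matched 1 row. RNA was sequenced from 3 subsets of eosinophils sorted from the lamina propria (LP) of the proximal small intestine (SI), with 4 libraries per subset and 12 in all. All mice were wild type female C57BL/6J by the labels, which give no treatment. Ages were 6 to 12 wk by the methods, which name both sexes for the experiments as a whole. The subsets were α4β7+, α4β7− CD22− and CD22+ eosinophils, gated as live CD45+ CD11b+ SiglecF+ MHCII− Ly6G− cells and then by the integrin α4β7 and the lectin CD22, and each library was made from the cells of a pair of pooled mice. The study places α4β7+ cells earliest and CD22+ cells latest in their residence in the tissue, so the comparisons ask how the transcripts of the degradative compartment differ along that order.

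Lysosomes are acidic organelles in which hydrolases break down material delivered by endocytosis, phagocytosis and autophagy. A vacuolar proton pump acidifies them, heavily glycosylated membrane proteins line them, and the factors TFEB, TFE3 and MITF drive many of their genes from a short promoter sequence built around CACGTG, the core of the CLEAR element. In autophagy, a membrane forms around cytoplasm under the control of ULK1 and Beclin 1, is decorated with proteins of the LC3 and GABARAP families by a conjugation machinery, and fuses with the lysosome. Eosinophils are granulocytes whose specific granules are related to lysosomes and carry CD63 in their membrane.

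The CLEAR core is shown first because it links the hydrolases, the proton pump and the TFEB family. RefSeq promoters of build GRCm38.p6, from 250 bases before to 50 bases after a start site, were matched for 45 of the 52 members, with 55 promoters among them. CACGTG, which reads the same on both strands, was present in 15 of the 55 promoters (27.3%), belonging to 15 members, and in 7.15% of all 32851 promoters in the table. The longer palindrome TCACGTGA, which contains it, was present in 7 of the 55 (12.7%) and in 0.974% of all. The sequences below are the sites of the 4 called members that hold CACGTG, followed by 1 site each from the proton pump, the membrane proteins and the autophagy genes for comparison, with the motif in capitals and each written 5′ to 3′ on the strand of its gene.
Ctsd, proximal site: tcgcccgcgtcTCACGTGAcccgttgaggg
Ctsd, distal site: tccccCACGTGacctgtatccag
Lgmn: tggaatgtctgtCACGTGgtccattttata
Ctsl: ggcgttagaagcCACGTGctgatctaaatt
Gaa: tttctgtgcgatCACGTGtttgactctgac
Atp6v0d1: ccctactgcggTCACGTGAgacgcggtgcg
Mcoln1: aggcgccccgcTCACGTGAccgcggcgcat
Atg3: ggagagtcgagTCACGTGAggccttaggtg

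The Ctsd sites lie on the minus strand at chr7:142387908-142387937, in the noncoding part of a Ctsd exon in GENCODE M21, and at chr7:142388055-142388077, outside annotated genes, with the motif starting 99 and 245 bases before the RefSeq start. The Lgmn site is at chr12:102439124-102439153 on the minus strand, 49 bases before the start of 1 of its 2 RefSeq promoters and inside an intron of the longer Lgmn transcript. The Ctsl site is at chr13:64370739-64370768 on the minus strand in a noncoding part of an exon, and the Gaa site at chr11:119267811-119267840 on the plus strand outside annotated genes, 140 bases before the start. The Atp6v0d1 site is at chr8:105566050-105566079 (minus strand), the Mcoln1 site at chr8:3500462-3500491 (plus strand) and the Atg3 site at chr16:45158746-45158775 (plus strand).

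Every member was measured. Mean normalized counts over the 12 libraries ranged from 90.3 to 5953, no library had a 0 for any member, the lowest single value was 54.8, and all 52 passed the filter of an average normalized count above 10. Differences were tested with limma on log2(normalized count + 1), fitted to all 15249 genes that passed the filter, with Benjamini-Hochberg adjustment within each comparison. Calls required an adjusted p no higher than 0.05 together with a difference of 1.5-fold or more. Total normalized counts were 14286500 to 16915800 per library, and the values are already scaled between libraries, so the number of sequenced fragments behind each is unknown.

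Of the sorting genes, Itgb7 was at 2526 ± 520 normalized counts (SD, n = 4) in α4β7+ against 220 ± 81.0 in α4β7− CD22− cells. Cd22 averaged 1115, 4462 and 13334 in α4β7+, α4β7− CD22− and CD22+ cells, so it was highest in the CD22+ gate and also differed between the other subsets. Itga4, the gene of the other chain of α4β7, averaged 37469, 29433 and 26876 in the same order. All 10 eosinophil markers were detected in every subset, and their sum was 97895 to 107263, 86324 to 92648 and 74546 to 81922 in α4β7+, α4β7− CD22− and CD22+ libraries, with no overlap. Among them Ccr3 averaged 25121, 15187 and 10773, Prg2 352, 185 and 110, and Il1rl1 458, 51.7 and 48.9. Others moved less, with Siglecf at 7534, 7827 and 7340 and Csf2rb at 12304.5, 14598 and 13453 on average. Against α4β7+ cells, the mean was higher for 2 of the 10 in α4β7− CD22− and for 1 in CD22+ cells, and lower for the rest. The neutrophil list summed to 15149 to 22893, 7340 to 9367 and 4750 to 5165, most of it Retnlg (18828, 6709 and 3053 on average), while Cxcr2 averaged 780, 1338 and 1772 and Ngp 31.6, 106 and 143, Elane was at 0 in every library and S100a8 did not exceed 1.03. The mast cell list summed to 804 to 951, 749 to 1058 and 914 to 1241, most of it Hdc (823, 780 and 972 on average), with Tpsb2 at 0 in every library. The part of these shifts in the differences below was not tested. The summed B and plasma cell list ran from 17077 to 35158, 12423 to 35325 and 17274 to 38064 in the 3 subsets, the macrophage list from 3765 to 5186, 3616 to 5907 and 3761 to 8238, and the epithelial and Paneth cell list from 2476 to 5555, 1688 to 3585 and 1246 to 6410. The dendritic cell and MHC class II list ran from 3528 to 5962, 3738 to 6750 and 3538 to 9223, and the T cell and ILC list from 1508 to 2153, 984 to 1310 and 1368 to 1744.

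Most calls lay between α4β7+ eosinophils and both other subsets, among the members as among all genes tested, and they ran in both directions. Between α4β7− CD22− and α4β7+ eosinophils, 3 members rose (Cd68, Ctsl and Gaa) and 3 fell (Ctsd, Lgmn and Wipi1), where 3.7% of all genes tested were called higher and 4.35% lower. Between CD22+ and α4β7+ eosinophils, 5 members rose (the same 3 with Lyz2 and Atg12) and the same 3 fell, where 5.6% of all genes were called higher and 6.39% lower. Between CD22+ and α4β7− CD22− eosinophils only Lyz2 was called, as higher, where 0.21% of all genes were called higher and 0.393% lower. Those called in either direction were 11.5%, 15.4% and 1.92% of the 52 members, beside 8.05%, 12% and 0.603% of all genes tested. The shares against α4β7+ were near those of all genes, and the differences in share were not tested. On the adjusted p alone, without the fold threshold, 10, 15 and 1 of the 52 members passed in the 3 comparisons, where 14.9%, 21.1% and 1.08% of all genes did. The first and second comparisons share the α4β7+ libraries, so their calls are not independent of each other.

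The median member did not move much in any of these. The median log2 fold change over the 52 members was 0.05, 0.12 and 0.01 in the 3 comparisons, beside 0.003, 0.01 and -0.001 over all genes tested. The 95% interval lay within a 1.5-fold change in either direction for 33 of the 46 members not called in the first comparison, 36 of 44 in the second and 45 of 51 in the third. The members' summed normalized counts were 66182 to 72357 per α4β7+ library, 67047 to 72852 per α4β7− CD22− library and 68158 to 74345 per CD22+ library. Their share of all normalized counts was 0.419 to 0.438%, 0.442 to 0.481% and 0.477 to 0.510%, and it was higher in later subsets beside a lower total of all genes, which was 15783600 to 16915800, 15011500 to 15740400 and 14286500 to 14758300.

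**Figure D1:**
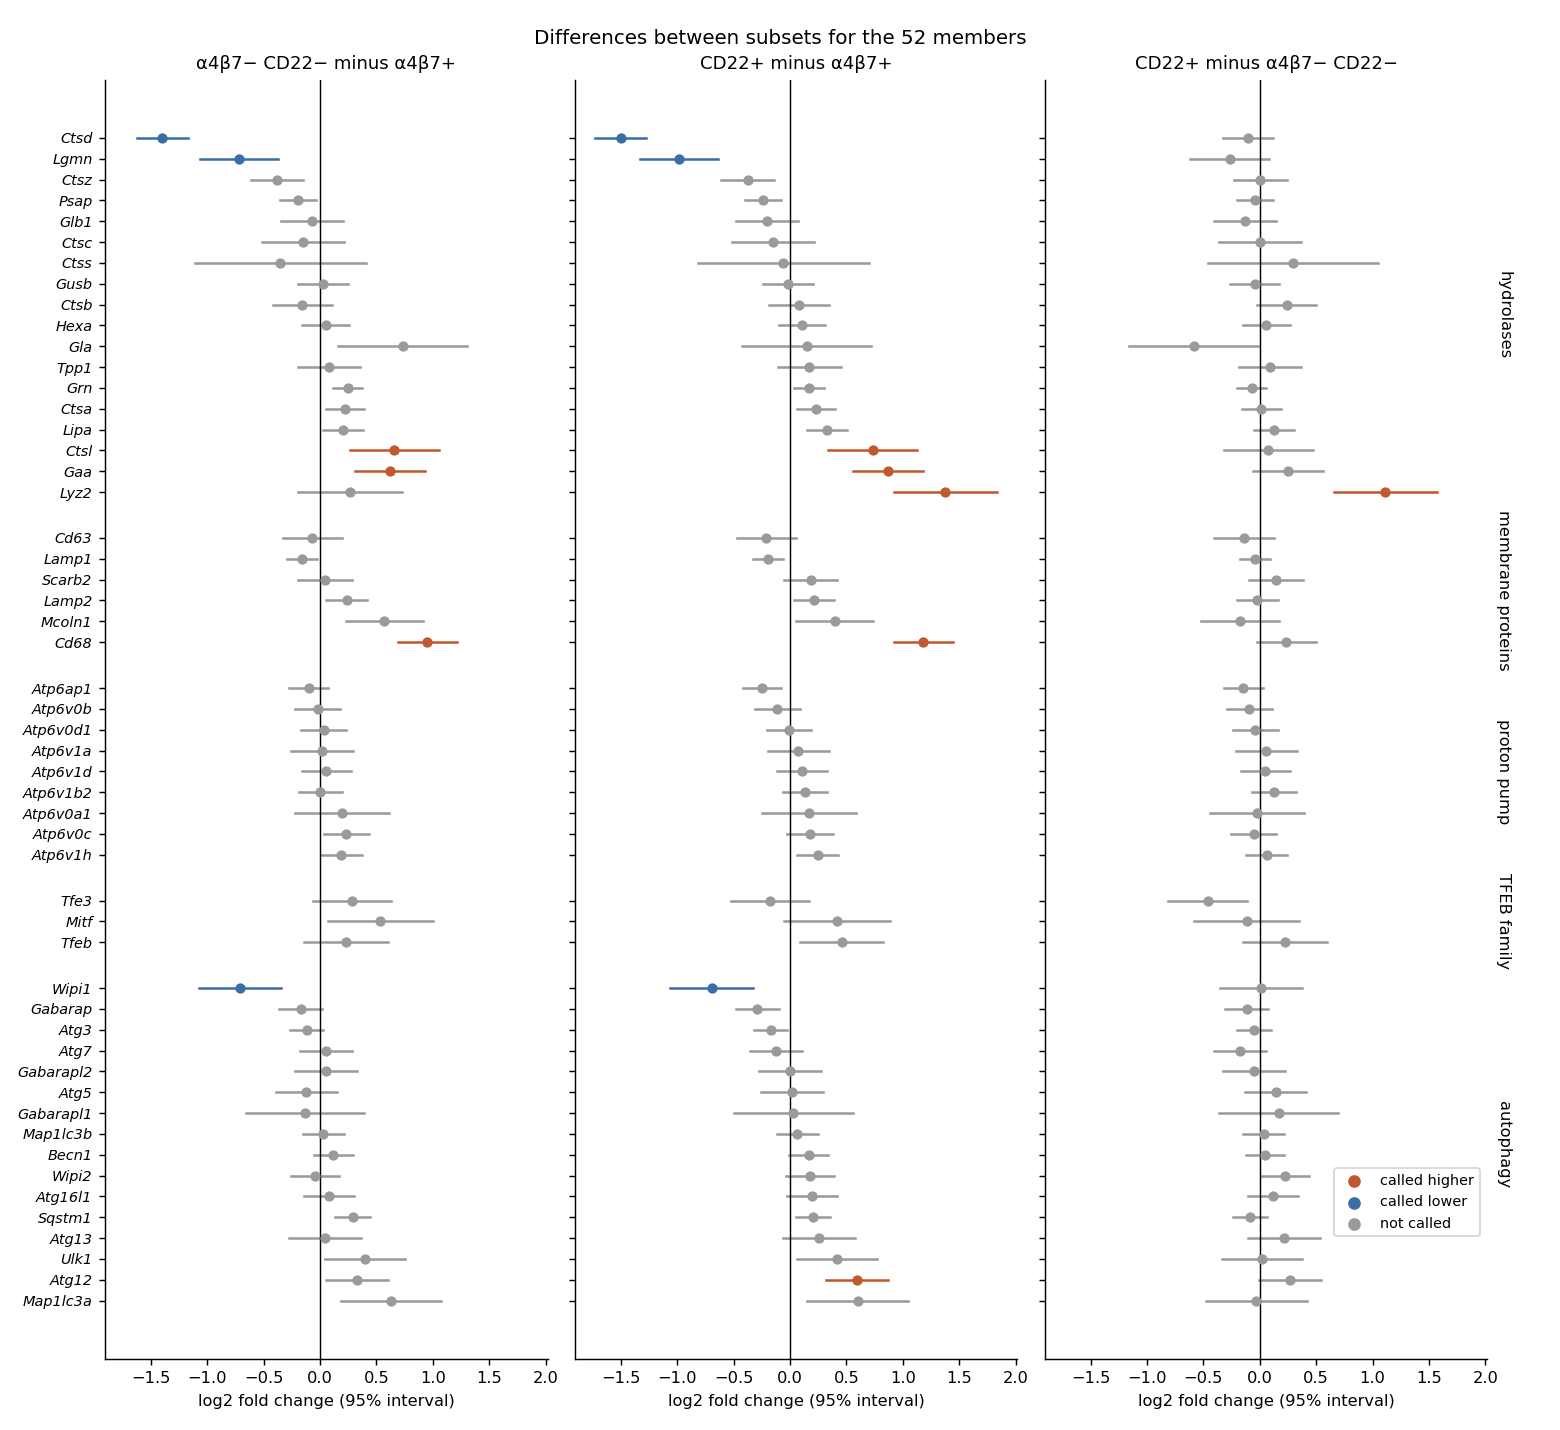
Log2 fold change (x axis) of each of the 52 members (y axis, grouped by class) in the 3 comparisons, with points for the limma estimate and lines for its 95% interval. Ctsd, Lgmn and Wipi1 lie to the left of 0 and Cd68, Ctsl and Gaa to the right in both comparisons with α4β7+ eosinophils, whereas Lyz2 alone is called between CD22+ and α4β7− CD22−.

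Among the hydrolases and lumenal proteins, 2 rose and 2 fell in α4β7− CD22− against α4β7+ eosinophils, and 3 rose and 2 fell in CD22+ against α4β7+, of 18 measured. Those called in either direction were 22.2% and 27.8% of the class, beside 8.05% and 12% of all genes tested, a difference that was not tested. The median log2 fold change of the class was 0.04 and 0.09.

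Ctsd encodes cathepsin D, the main aspartic protease of the lysosome. The α4β7+ libraries held 3190, 3020, 2420 and 3026 normalized counts, the α4β7− CD22− libraries 1204, 1020, 1014 and 1173, and the CD22+ libraries 989, 911, 1031 and 1178. Every α4β7+ library was above every library of the other subsets, which overlapped each other. Ctsd fell 2.63-fold in α4β7− CD22− (log2 fold change -1.40 ± 0.105 SE, adjusted p = 6.59e-07) and 2.83-fold in CD22+ eosinophils (-1.50 ± 0.105, adjusted p = 1.05e-07). The difference between the latter subsets was -0.10, with a 95% interval of -0.33 to 0.12. The gene lies on chromosome 7 from 142375911 to 142388038 (GRCm38, minus strand), and 38.0% of the length of its longest coding transcript is identical to the overlapping gene model Gm49369, which averaged 307, 99.5 and 94.5 normalized counts in the 3 subsets, so reads could have been divided between them.

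Lgmn encodes legumain, an asparaginyl endopeptidase that processes cathepsins. Its values were 1143, 1106, 822 and 1125 normalized counts in the α4β7+ libraries, 641, 572, 570 and 764 in those of α4β7− CD22− and 422, 442, 585 and 694 in those of CD22+ eosinophils. All α4β7+ libraries were above all others, and the third α4β7+ library was the lowest of its subset. Lgmn fell 1.64-fold (log2 fold change -0.72 ± 0.162, adjusted p = 0.0077) and 1.98-fold (-0.99 ± 0.162, adjusted p = 0.000433) in the later subsets. It lies on chromosome 12 from 102394084 to 102439813.

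Ctsl and Gaa moved the other way. Ctsl, the gene of the cysteine protease cathepsin L, was at 259, 252, 406 and 224 normalized counts in the α4β7+ libraries, 532, 480, 402 and 360 in those of α4β7− CD22− and 560, 401, 409 and 498 in those of CD22+ eosinophils. The third α4β7+ library overlapped the other subsets, and the remaining 3 were below all of them. Ctsl rose 1.58-fold in α4β7− CD22− (log2 fold change 0.66 ± 0.185, adjusted p = 0.0262) and 1.66-fold in CD22+ eosinophils (0.73 ± 0.185, adjusted p = 0.0102). The first of these calls was lost when any 1 of α4β7+ replicates 1, 2 and 4 or α4β7− CD22− replicates 1 and 2 was left out (log2 fold change 0.56 to 0.62) and with the summed epithelial and Paneth cell markers as a covariate (0.58, adjusted p = 0.0677), and the second was kept in all of these. Ctsl lies on chromosome 13 from 64359337 to 64370890, and 28.6% of its longest coding transcript is shared with the gene model Gm47123 at 99.8% identity.

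Gaa encodes acid alpha-glucosidase, which degrades glycogen in the lysosome. It was at 575, 495, 572 and 717 normalized counts in the α4β7+ libraries, 711, 917, 955 and 1037 in those of α4β7− CD22− and 1119, 1228, 841 and 1125 in those of CD22+ eosinophils. The CD22+ libraries were all above the α4β7+ libraries, and 1 α4β7− CD22− library lay within the α4β7+ range. Gaa rose 1.53-fold (log2 fold change 0.62 ± 0.145, adjusted p = 0.00988) and 1.83-fold (0.87 ± 0.145, adjusted p = 0.000492). Without α4β7+ replicate 2 or α4β7− CD22− replicate 4 the first difference was 0.54 or 0.55 and fell under the 1.5-fold threshold. The gene lies on chromosome 11 from 119267887 to 119285454, and no stretch of its longest coding transcript was found to be shared with another gene.

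Lyz2, the gene of the myeloid lysozyme that cleaves bacterial cell walls, was the 1 member called in CD22+ against both other subsets. It was at 450, 663, 497 and 694 normalized counts in the α4β7+ libraries, 911, 604, 432 and 902 in those of α4β7− CD22− and 1583, 1361, 1274 and 1723 in those of CD22+ eosinophils. All CD22+ libraries were above all others, while the α4β7+ and α4β7− CD22− libraries overlapped. Lyz2 rose 2.60-fold in CD22+ against α4β7+ (95% interval of the log2 fold change 0.92 to 1.84, adjusted p = 0.000271) and 2.16-fold against α4β7− CD22− (log2 fold change 1.11 ± 0.215, adjusted p = 0.0215). The call against α4β7− CD22− was lost without α4β7− CD22− replicate 2 (log2 fold change 1.06, adjusted p = 0.0775), CD22+ replicate 1 (1.08, 0.0589) or CD22+ replicate 4 (1.04, 0.0721). It was also lost with limma without the trend (adjusted p = 0.109).

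Lyz2 is abundant in macrophages, and marker lists were set beside it. Between CD22+ and α4β7− CD22−, the mean was higher in CD22+ for 9 of 10 macrophage, 9 of 9 T cell and ILC, 7 of 9 dendritic cell and MHC class II, 8 of 10 B and plasma cell and 8 of 10 epithelial and Paneth cell markers. It was higher for 4 of 10 neutrophil, 3 of 8 mast cell and 0 of 10 eosinophil markers. Between CD22+ and α4β7+, it was higher in CD22+ for 7 of 10 macrophage, 7 of 10 B and plasma cell and 6 of 9 dendritic cell and MHC class II markers. The counts there were 2 of 9 for T cell and ILC, 3 of 10 for epithelial and Paneth cell, 3 of 10 for neutrophil, 3 of 8 for mast cell and 1 of 10 for eosinophil markers. Within α4β7− CD22−, replicates 1 and 4 had the higher Lyz2 values and the higher B and plasma cell sums (34275 and 35325, against 19064 and 12423 in replicates 2 and 3). CD22+ replicate 4 had the highest Lyz2, macrophage sum (8238) and value of C1qa, a complement gene of macrophages (388, against 105 to 301 in the other libraries), and CD22+ replicate 1 had the next highest Lyz2 beside a macrophage sum of 3761, just under the lowest α4β7+ library. With the macrophage sum as a covariate, Lyz2 differed by 1.00 on the log2 scale between CD22+ and α4β7− CD22− (adjusted p = 0.069) and remained called against α4β7+. With the B and plasma cell sum as a covariate, the difference was 0.91 (adjusted p = 0.00329) and 1.19 against α4β7+ (adjusted p = 1.06e-05). The part of other cells in the Lyz2 result was not tested further, and in bulk libraries fewer cells of a type cannot be told apart from less RNA per cell. Lyz2 shares 96.0% of its transcript with its neighbour Lyz1, the Paneth cell lysozyme, at 95.8% identity. Lyz1 was at 53.2 to 80.1, 20.2 to 114.8 and 64.2 to 344.0 normalized counts in the 3 subsets, well below Lyz2 in each library.

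**Figure D2:**
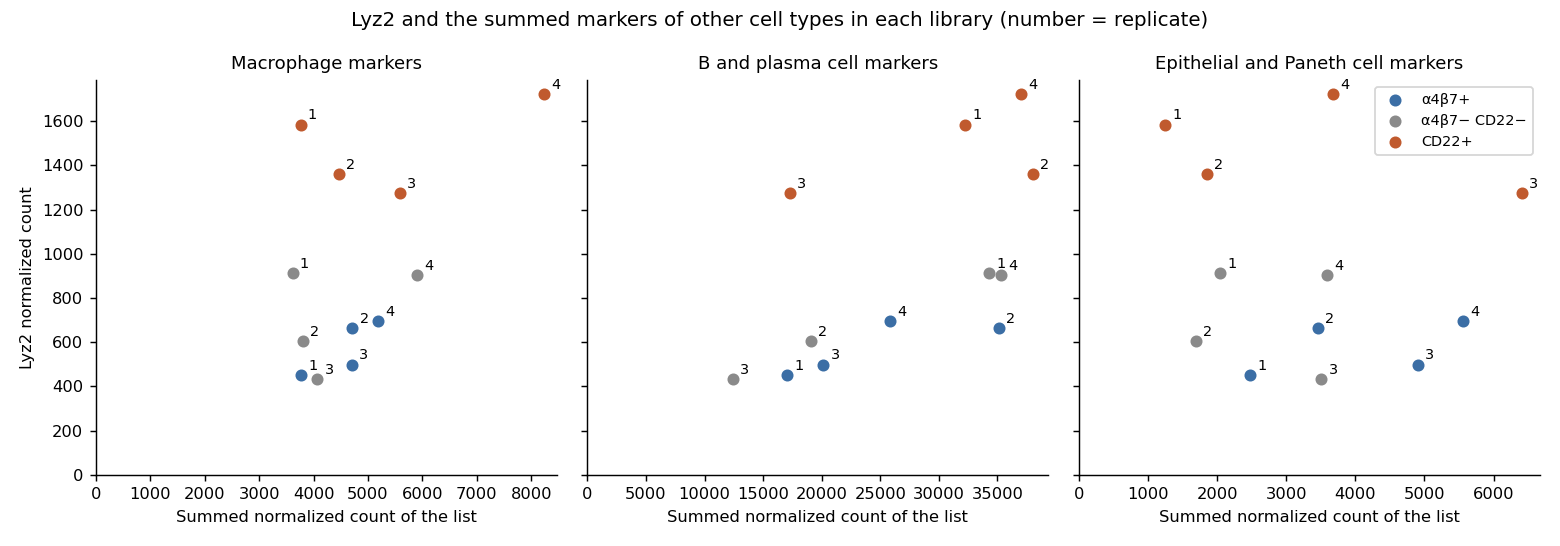
Lyz2 normalized count (y axis) against the summed normalized count of macrophage, B and plasma cell, and epithelial and Paneth cell markers (x axes) in each of the 12 libraries, numbered by replicate within subset. The 4 CD22+ libraries lie at 1274 to 1723, above the other 8 libraries, over macrophage sums of 3761 to 8238.

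The other 13 members of the class of hydrolases and lumenal proteins were called in no comparison, and their log2 fold changes against α4β7+ lay between -0.38 and 0.73. Ctsz, Grn, Ctsa, Lipa and Psap passed the adjusted p in at least 1 comparison at folds under 1.5. Ctsz (cathepsin X) averaged 1204 ± 47, 926 ± 73 and 938 ± 161 normalized counts in the 3 subsets, and both later subsets differed from α4β7+ by -0.38 in each on the log2 scale (adjusted p = 0.0281 and 0.0226). Grn, the gene of progranulin, had the highest level of any member per length, at 2304, 2732 and 2596 normalized counts per kb of its longest coding transcript, and its log2 fold change was 0.24 (adjusted p = 0.0144) and 0.17 (adjusted p = 0.0613). Its libraries held 5506, 5259, 5286 and 5519 normalized counts for α4β7+, 6192, 6948, 6437 and 5992 for α4β7− CD22− and 6246, 6225, 5767 and 6057 for CD22+ eosinophils, all α4β7+ libraries being below the rest. Lipa (acid lipase) differed by 0.33 between CD22+ and α4β7+ (adjusted p = 0.00955). Gla, the gene of alpha-galactosidase A, had the widest differences of those not called, at 192 ± 78 normalized counts in α4β7− CD22− against 112 ± 31 in α4β7+, with a log2 fold change of 0.73 and a 95% interval of 0.16 to 1.30 (adjusted p = 0.0831).

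**Figure D3:**
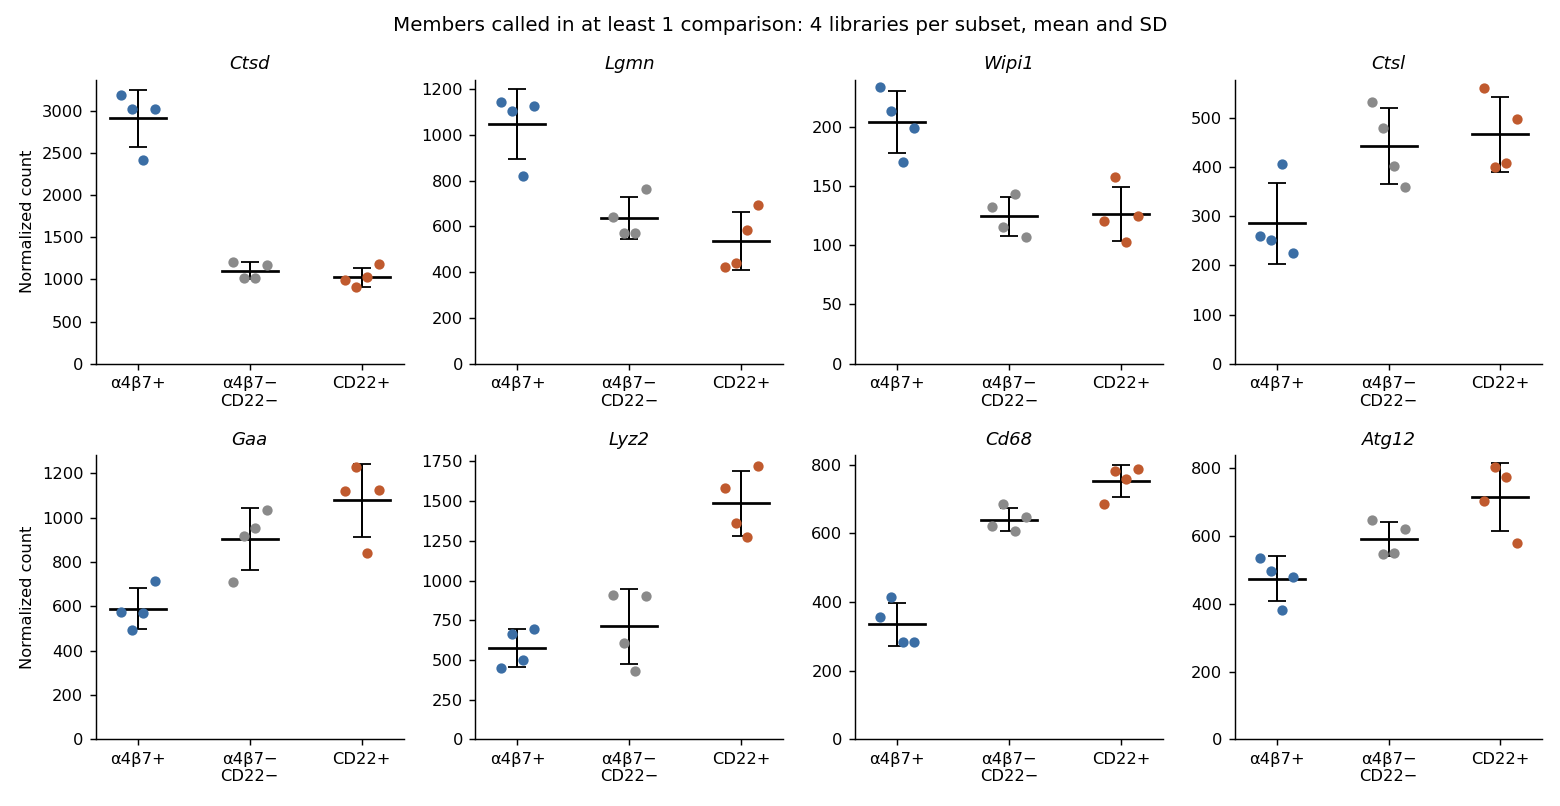
Normalized counts (y axes, from 0) of the 8 members called in at least 1 comparison, by subset (x axes), with 1 point per library and lines for the mean and SD of 4 libraries. Ctsd, Lgmn and Wipi1 are highest in α4β7+ eosinophils, Cd68 is higher in both other subsets, and Lyz2 stands apart in CD22+ eosinophils at 1485 ± 205.

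Of the 6 membrane proteins, Cd68 rose in both later subsets and none fell, and 1 call in so small a class is not read against the 8.05% and 12% of all genes. Cd68, the macrosialin gene commonly used as a macrophage marker, was at 357, 415, 283 and 284 normalized counts in the α4β7+ libraries, 622, 684, 607 and 647 in those of α4β7− CD22− and 685, 781, 760 and 788 in those of CD22+ eosinophils. The 3 ranges did not overlap, although the highest α4β7− CD22− library and the lowest CD22+ library were nearly equal. Cd68 rose 1.93-fold (log2 fold change 0.95 ± 0.122, adjusted p = 8.81e-05) and 2.27-fold (1.18 ± 0.122, adjusted p = 5e-06) against α4β7+, while the step of 0.23 from α4β7− CD22− to CD22+ was not called (95% interval -0.03 to 0.49, adjusted p = 0.59). Both calls were kept with each of the 3 marker sums as a covariate, namely macrophage, B and plasma cell, and epithelial and Paneth cell. Of the 10 macrophage markers, 2 had a higher mean in α4β7− CD22− than in α4β7+ and 7 had a higher mean in CD22+ than in α4β7+. Apoe averaged 1714, 1901 and 2780 normalized counts in the 3 subsets and C1qa 197, 179 and 232, whereas Csf1r averaged 1905, 1578 and 1593. The part of macrophage RNA in the Cd68 difference was not tested beyond that covariate. Cd68 lies on chromosome 11 from 69664213 to 69666153, and no stretch of its longest coding transcript was found to be shared with another gene.

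The structural proteins of the lysosomal membrane differed little. Lamp1 averaged 4463 ± 176, 4003 ± 265 and 3889 ± 60 normalized counts in the 3 subsets, with a log2 fold change of -0.20 in CD22+ against α4β7+ (adjusted p = 0.0355), under the fold threshold. Lamp2, which also serves chaperone-mediated autophagy, averaged 2012, 2368 and 2332 (log2 fold changes 0.24 and 0.21, adjusted p = 0.0773 and 0.0922). Cd63, the tetraspanin of granule and lysosome membranes, had the highest level of the class per length, at 1900 normalized counts per kb over all libraries, and its log2 fold changes of -0.07 and -0.21 did not pass the test. It was at 2354, 2483, 2221 and 1895 normalized counts in the α4β7+ libraries, 2559, 2225, 1775 and 2017 in those of α4β7− CD22− and 1986, 1617, 1936 and 2221 in those of CD22+ eosinophils, with overlap between all 3. Cd63 shares 73.2% of its longest coding transcript with Cd63-ps at 98.7% identity, and Cd63-ps did not exceed 13.3 normalized counts in any library. Mcoln1, the gene of the lysosomal calcium channel TRPML1, averaged 563 ± 109, 838 ± 178 and 734 ± 88, with a log2 fold change of 0.57 in α4β7− CD22− (adjusted p = 0.0263) just under the 1.5-fold threshold and 0.40 in CD22+ (adjusted p = 0.1).

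None of the 9 proton pump genes on the list was called in any comparison, where 8.05%, 12% and 0.603% of all genes were, so that a count of 0 in a class of this size is near the background. Their log2 fold changes lay between -0.25 and 0.25. By limma, 2, 2 and 0 of them had an unadjusted p under 0.05 in the 3 comparisons. The widest 95% intervals reached -0.44 and 0.61. The interval lay within a 1.5-fold change for 8 of the 9 in α4β7− CD22− against α4β7+ and for all 9 in the other comparisons. The libraries of Atp6v0a1, Atp6v0b and Atp6v0d1 in the membrane sector and of Atp6v1a, Atp6v1b2 and Atp6v1d in the catalytic sector overlapped between all subsets. Atp6v1h, a regulatory subunit of the catalytic sector, was at 718 to 912, 916 to 967 and 941 to 1015 normalized counts in the 3 subsets, so that every α4β7+ library was below the rest, and its log2 fold changes of 0.19 and 0.25 against α4β7+ did not pass the test (adjusted p = 0.175 and 0.052). Atp6ap1, an accessory protein, had the lowest estimate at -0.25 in CD22+ against α4β7+ (2242 ± 56 against 1897 ± 174 normalized counts, adjusted p = 0.0404). The highest level per kb of the longest coding transcript in the class was that of Atp6v0c, the proton-carrying ring subunit, at 1546. It was at 1709, 1679, 1662 and 1570 normalized counts in the α4β7+ libraries, 1961, 1982, 1846 and 1992 in those of α4β7− CD22− and 1965, 1952, 1499 and 2133 in those of CD22+ eosinophils, of which only the third lay below the α4β7+ range. Atp6v0c shares 39.3% of its longest coding transcript with Atp6v0c-ps2 at 99.8% identity.

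No member of the TFEB family was called by limma, and 1 of the 3 had an unadjusted p under 0.05 in each comparison. Tfeb was at 1109, 903, 671 and 722 normalized counts in the α4β7+ libraries, 1004, 1156, 844 and 946 in those of α4β7− CD22− and 1343, 1418, 875 and 1035 in those of CD22+ eosinophils, and the 3 ranges overlapped. Its log2 fold change in CD22+ against α4β7+ was 0.46, with a 95% interval of 0.09 to 0.83 (adjusted p = 0.0786). Mitf averaged 98 ± 32, 137 ± 9 and 127 ± 20 normalized counts, and Tfe3 581 ± 59, 726 ± 202 and 512 ± 33. These levels describe transcripts, whereas the activity of the family is largely set by the movement of the proteins into the nucleus. Of the 15 members whose promoters held CACGTG, Ctsl and Gaa rose and Ctsd and Lgmn fell in both comparisons with α4β7+ eosinophils, and of the 30 matched members without it, Cd68 rose and Wipi1 fell in both and Lyz2 rose in CD22+, where 8.05% and 12% of all genes were called. The difference between members with and without the motif was not tested, and the match says nothing of the factors. The median log2 fold change in CD22+ against α4β7+ was -0.01 with the motif and 0.14 without it.

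**Figure D4:**
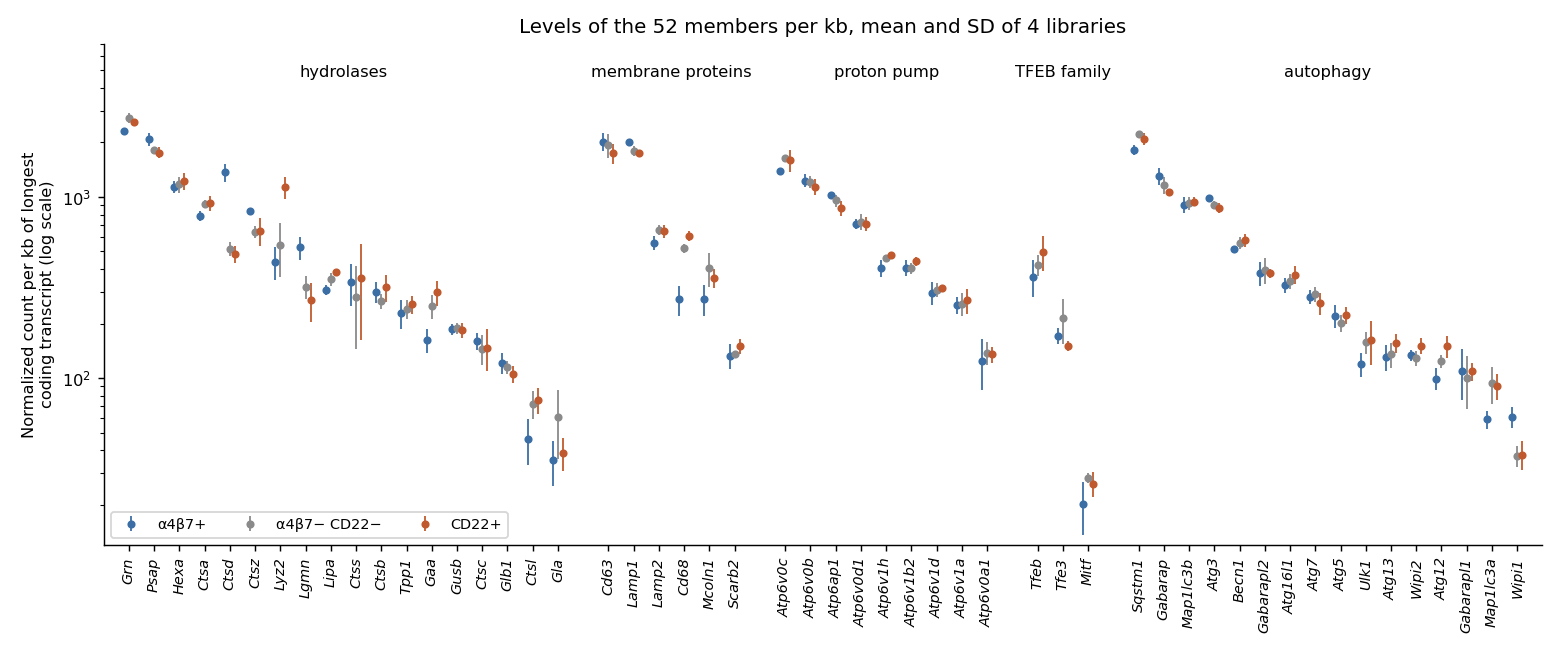
Normalized count per kb of the longest coding transcript (y axis, log scale) for the 52 members by class (x axis), with the mean and SD of 4 libraries for each subset. Grn, Psap, Lamp1, Cd63, Atp6v0c and Sqstm1 are among the highest, and the shift of Ctsd between subsets is wider than that of any proton pump subunit.

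Of the 16 autophagy genes, Wipi1 fell in both later subsets and Atg12 rose in CD22+ eosinophils. These calls were 6.25% and 12.5% of the class, near the 8.05% and 12% of all genes. The median log2 fold change of the class was 0.05 and 0.11 against α4β7+. Wipi1 encodes a protein that binds phosphatidylinositol 3-phosphate on forming autophagosomes. It was at 233, 213, 170 and 199 normalized counts in the α4β7+ libraries, 132, 116, 143 and 107 in those of α4β7− CD22− and 120, 158, 102 and 124 in those of CD22+ eosinophils. Every α4β7+ library was above every other library. Wipi1 fell 1.63-fold (log2 fold change -0.71 ± 0.170, adjusted p = 0.0111) and 1.62-fold (-0.69 ± 0.170, adjusted p = 0.00856), and it lies on chromosome 11 from 109573331 to 109611967. Its paralog Wipi2 averaged 689 ± 47, 668 ± 62 and 781 ± 82 and was not called, with log2 fold changes of -0.05 and 0.18. The difference between the paralogs was not tested.

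Atg12 encodes a ubiquitin-like protein that is joined to ATG5. It was at 536, 497, 382 and 480 normalized counts in the α4β7+ libraries, 647, 547, 550 and 620 in those of α4β7− CD22− and 702, 804, 775 and 578 in those of CD22+ eosinophils. The libraries of both later subsets were all above the α4β7+ libraries and overlapped each other. Atg12 rose 1.51-fold in CD22+ against α4β7+ (log2 fold change 0.59 ± 0.128, adjusted p = 0.00365), and its difference of 0.33 in α4β7− CD22− was not called (adjusted p = 0.109). The fold lies at the threshold, and without α4β7+ replicate 3, CD22+ replicate 2 or CD22+ replicate 3 it was 0.49, 0.53 or 0.55 on the log2 scale and was not called, with adjusted p of 0.0124 to 0.0149.

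The remaining autophagy genes were not called. In the conjugation machinery, Atg3, Atg5, Atg7 and Atg16l1 had log2 fold changes of -0.17 to 0.19 against α4β7+. In the initiation complexes, Ulk1 averaged 624 ± 95, 821 ± 117 and 847 ± 233 normalized counts (log2 fold changes 0.40 and 0.42, adjusted p = 0.134 and 0.0952), Atg13 differed by 0.05 and 0.26, and Becn1 (Beclin 1) by 0.12 and 0.16. Becn1 shares 51.9% of its longest coding transcript with the overlapping gene Cntd1, which was at 24.5 to 61.1 normalized counts, far below Becn1.

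Among the ATG8 proteins, which mark the autophagosome membrane, Map1lc3a was at 54.8, 71.4, 70.4 and 66.9 normalized counts in the α4β7+ libraries, 75, 95.6, 131.9 and 114.5 in those of α4β7− CD22− and 124.2, 86.7, 97.1 and 95.1 in those of CD22+ eosinophils. All α4β7+ libraries were below all others. The log2 fold changes of 0.63 and 0.60 just missed the test (adjusted p = 0.0566 and 0.0543). Map1lc3b, at 2384, 2429 and 2485 on average, differed by 0.03 and 0.06 (95% intervals -0.15 to 0.21 and -0.12 to 0.24). Gabarap averaged 1763 ± 181, 1565 ± 167 and 1438 ± 23, with a log2 fold change of -0.29 in CD22+ (adjusted p = 0.0338), under the fold threshold, and Gabarapl1 and Gabarapl2 differed by -0.14 to 0.05. Sqstm1, the cargo receptor p62, had the highest level of the class per kb of the longest coding transcript (2044), and held 5308, 4651, 4884 and 4601 normalized counts in the α4β7+ libraries, 5723, 6345, 5784 and 5864 in those of α4β7− CD22− and 6172, 5656, 5332 and 5227 in those of CD22+ eosinophils. All α4β7− CD22− libraries were above all α4β7+ libraries, and 1 CD22+ library was not. Its log2 fold changes were 0.29 and 0.20 (adjusted p = 0.0132 and 0.0572). Sqstm1 shares 21.8% of its longest coding transcript with the gene Mrnip at 100% identity.

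A further 152 genes of the same pathways were listed, and 142 passed the filter. Of these, 7 rose and 5 fell in α4β7− CD22− against α4β7+, 11 rose and 8 fell in CD22+ against α4β7+, and 0 were called by limma between CD22+ and α4β7− CD22−, where 11 had an unadjusted p under 0.05. Those called in either direction were 8.45% and 13.4% of the 142 in the comparisons with α4β7+, near the 8.05% and 12% of all genes. Hydrolases, 36 of the 142, held 3 of the 7 and 3 of the 5, and 5 of the 11 and 4 of the 8, which is 16.7% and 25% of them, and their difference from all genes was not tested. None of the 11 tested proton pump genes was called by limma in any comparison, and 1, 2 and 0 had an unadjusted p under 0.05 in the 3 comparisons. Tcirg1, the gene of the pump subunit a3, chosen after its values were seen, passed the adjusted p and missed the fold threshold. It averaged 1663, 2417 and 2463 normalized counts in the 3 subsets, a fold against α4β7+ of 1.45 and 1.48 (log2 fold changes 0.54 and 0.56, limma's adjusted p = 0.000569 and 0.000227), with every library of both later subsets above every α4β7+ library. The median log2 fold change of the 142 was 0.06 and 0.05 against α4β7+.

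The largest falls were in genes outside the member list. Slc11a1, the gene of the phagosomal metal transporter NRAMP1, was at 869, 817, 1076 and 936 normalized counts in the α4β7+ libraries, 194, 193, 190 and 280 in those of α4β7− CD22− and 247, 117, 122 and 165 in those of CD22+ eosinophils. Its log2 fold change was -2.12 ± 0.211 (adjusted p = 8.23e-06) in α4β7− CD22− and -2.56 ± 0.211 in CD22+ (adjusted p = 5.86e-07). Ddit4, the gene of REDD1, a stress-induced inhibitor of mTORC1, was at 308, 411, 304 and 360 in the α4β7+ libraries, 81.0, 56.6, 109.7 and 80.5 in those of α4β7− CD22− and 56.9, 39.9, 81.6 and 69.4 in those of CD22+ eosinophils (log2 fold change -2.09 and -2.50). Both were highest in all 4 α4β7+ libraries. Ctse, the gene of the intracellular aspartic protease cathepsin E, averaged 193 ± 24, 64.7 ± 24 and 44.7 ± 26 normalized counts, a log2 fold change of -1.62 (adjusted p = 0.0115) and -2.30 (adjusted p = 0.000571), in the same direction as Ctsd.

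Galc (galactocerebrosidase) fell in both later subsets (log2 fold change -1.22 and -1.68), and the first of these calls was lost without α4β7+ replicate 1 or 4 or α4β7− CD22− replicate 2 or 4. Pla2g15, a lysosomal phospholipase gene, fell by 0.91 in α4β7− CD22− (264 ± 34 to 145 ± 48 normalized counts), and its log2 fold change of -0.57 in CD22+, at 181 on average, was not called (adjusted p = 0.0813). Man2b1, the gene of lysosomal alpha-mannosidase, averaged 22440 ± 1181, 16169 ± 942 and 13497 ± 584 normalized counts, above every member, and fell by 0.73 in CD22+ eosinophils (adjusted p = 8.48e-07), while its difference of -0.47 in α4β7− CD22− was under the fold threshold. After quantile normalization the CD22+ difference was -0.39 and was not called.

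Of the named genes that rose, Idua (alpha-L-iduronidase) averaged 255 ± 41, 406 ± 49 and 496 ± 54 normalized counts (log2 fold change 0.67 and 0.97, adjusted p = 0.00346 and 0.000105), and Sgsh (sulfamidase) rose by 0.80 in CD22+ (adjusted p = 0.000291), with 0.50 in α4β7− CD22− under the fold threshold. Acp5, the gene of tartrate-resistant acid phosphatase, averaged 3430 ± 442, 5910 ± 680 and 6047 ± 733 (0.79 and 0.82), and Laptm4a, a lysosomal membrane protein gene, 3135 ± 364, 4942 ± 442 and 5260 ± 234 (0.66 and 0.75). Every library of the later subsets was above every α4β7+ library for each of these 4 genes in the comparisons named. In α4β7− CD22− the Laptm4a call was lost without α4β7+ replicate 4, at a log2 fold change of 0.58. Castor1, the gene of an arginine sensor for mTORC1, rose by 0.77 in α4β7− CD22− (58.0 ± 15.4 to 97.1 ± 9.4 normalized counts, adjusted p = 0.0316) and lost that call without α4β7+ replicate 1 or α4β7− CD22− replicate 1, 2 or 4. It was also called in CD22+, at 0.70 (adjusted p = 0.0393), a call that was not examined under the alternatives.

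**Figure D5:**
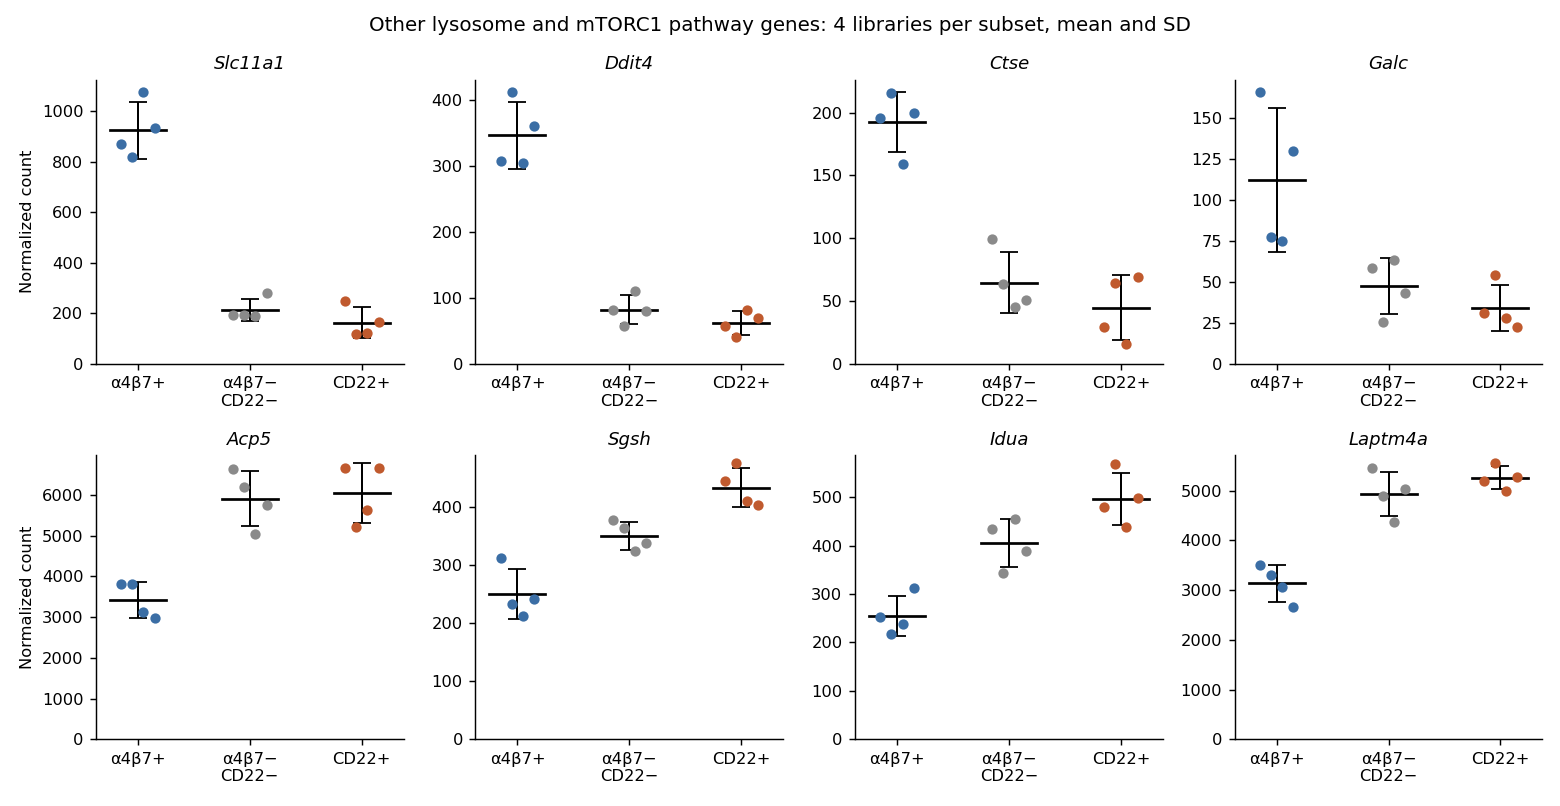
Normalized counts (y axes, from 0) of 8 other lysosome and mTORC1 pathway genes by subset (x axes), with 1 point per library and lines for the mean and SD of 4 libraries. Slc11a1, Ddit4, Ctse and Galc in the upper row are highest in α4β7+ eosinophils, and Acp5, Sgsh, Idua and Laptm4a in the lower row are lowest there.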

How the data were processed

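The authors trimmed reads with Trimmomatic 0.39, pseudoaligned them to the mouse transcriptome (mm10, GRCm38) with kallisto 0.46.1 and normalized the counts with DESeq2 1.38.2, per the submitters' processing notes and the study's methods. The kit marks strand, but the strand setting of kallisto is not given in the sources used here. The deposited values are normalized counts, a scaled signal that is not whole numbers, so no count model was used. Members were matched by symbol, and the members and gene lists were chosen with earlier results of these data known. The values were tested as log2(normalized count + 1) with limma 3.58.1 (R 4.3.3, trended variance, 12 libraries in 1 model, average normalized count above 10), two-sided, with calls at an adjusted p up to 0.05 that also differed 1.5-fold or more. The script was tested on simulated data. The sources do not say which libraries shared mice. Deviations of same-numbered libraries correlated above 0.1 in all 4 pairs of CD22+ and α4β7− CD22− (0.135 to 0.203), so that those numbers may pair the libraries, and in 2 of 4 and 1 of 4 pairs with α4β7+, so the replicate block was kept as an alternative. The p-values measure only the spread between libraries, which may be in part technical. Library values are given for members called in at least 1 comparison, along with the highest member of each class per kb of the longest coding transcript. Members not called are given by ranges, with up to 3 per class by smallest unadjusted p, and other pathway genes by the 5 largest changes per comparison and direction, of which 1 gene is not reported here. Further genes and Map1lc3a library values were chosen after values were seen, to cover each step of the pathway. Positions, exons and lengths came from GENCODE M21, shared stretches from BLAST 2.17.0 and promoters from RefSeq (GRCm38.p6). Alternatives were pseudocounts of 0.1 and 10, no filter or an average above 50, scaling by the 75th percentile, limma without the trend, quantile normalization, adjusted p alone, only the compared subsets, a replicate block, each library left out, and, chosen after seeing the data, the summed macrophage, B and plasma cell, or epithelial and Paneth cell markers as a covariate.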

Additional observations from a re-analysis of the deposited data

Results flagged for a closer look

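For each of the 8 called members, the highest and lowest library of each subset was compared with the others, in 24 groups of 4 libraries. Lgmn in α4β7+ replicate 3 lay far from the rest, at 821.7 normalized counts against 1106 to 1143 in the other 3 libraries, with a gap of 0.885 of the whole range. It was the only such value among the 24, and chance gives about 1 in 20. Without that library Lgmn was still called lower in both later subsets.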

How the results depend on the processing

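No difference called among the members, or examined among the other pathway genes named by rule, changed direction under any of the 13 alternatives or the 12 fits with a library left out. The call of Castor1 in CD22+ was not among those examined. With the adjusted p alone, without the fold threshold, 10 members were called in α4β7− CD22− against α4β7+ and 15 in CD22+ against α4β7+, where 14.9% and 21.1% of all genes were called. In CD22+ against α4β7− CD22− eosinophils 0 were called with limma without the trend (Lyz2 adjusted p = 0.109) and 0 with the macrophage sum as a covariate, where the cause was not tested. Leaving out 1 library at a time gave 4 to 8, 7 to 9 and 0 to 1 calls in the 3 comparisons. With a replicate block the counts were 6, 8 and 1. The block ended no call among the members and ended that of Galc in α4β7− CD22− (adjusted p = 0.050007), which was also lost with no filter (0.0586) and without the trend (0.0545). Castor1 in α4β7− CD22− lost its call with no filter (0.0571), after scaling by the 75th percentile (0.0675) and with only the compared subsets (0.0605). Atg12 missed the fold threshold at a pseudocount of 10 (0.58), after scaling by the 75th percentile (0.56) and with the plasma cell (0.58) or epithelial (0.56) sum as a covariate. Ctsl in α4β7− CD22− missed the adjusted p after scaling by the 75th percentile (0.0795) and without the trend (0.057). With the median coding length in place of the longest, the highest member per kb was Atp6ap1 in the proton pump and Becn1 among autophagy genes. With 4 libraries per subset, members with wide intervals such as Ctss and Gla could hold differences that were not detectable.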
